A study of Mus musculus with 18 samples.

Results

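The machinery of the retinoid response, listed as 10 genes, was followed through the differentiation of mouse embryonic stem (ES) cells into motor neurons. The list holds the retinoic acid (RA) receptor genes Rarb and Rarg, the retinoid X receptor genes Rxra, Rxrb and Rxrg, the co-repressor genes Nrip1 and Ncor1, and the p160 co-activator genes Ncoa1, Ncoa2 and Ncoa3. A probe set was taken as a member if the array's probe-to-gene table gave it a single symbol and that symbol was one of these names. This rule found 23 probe sets for 9 of the 10 listed genes, among 45037 probe sets tested, of which 34945 had a single symbol and stood for 18193 genes. Ncor1 had no single-symbol probe set here and was not analysed. The expression values are log2 signals from 18 Affymetrix Mouse Genome arrays, made by the authors with GCRMA, and a difference of 1 on this scale is 2-fold.

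The arrays cover HBG3 ES cells, a mouse line with a green fluorescent reporter under the promoter of the motor neuron gene Hb9 (Mnx1), and the cells derived from them. The stages were ES cells (day 0, n = 3 arrays), embryoid bodies (day 2, n = 4), day 2 embryoid bodies after 8 h with RA (n = 2), neural precursors (day 3, n = 3), progenitor motor neurons (day 4, n = 3) and postmitotic motor neurons (day 7, n = 3). RA and SAG, an agonist of hedgehog signaling, were added to the medium on day 2, so that cells of day 3 and later had been exposed to both, and the sources used here do not settle whether SAG was present in the 8 h arrays. The labels name no array cultured 8 h longer without RA, so that RA and 8 h of further culture cannot be told apart. All groups derive from the same ES cell line. The methods describe 3 biological replicates per time point, whereas the labels give 4 arrays at day 2 and 2 after 8 h of RA. The p-values set a difference between groups against the spread of these arrays within groups, pooled over all stages in the main fit. Only 2 arrays of the 8 h group enter that spread.

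RA acts through nuclear receptors of the RAR family, which bind DNA as heterodimers with an RXR partner. The pair recognizes direct repeats of a short hexamer, named by the number of bases between the repeats, for example DR5, DR2 or DR1. Without ligand, the receptors can hold co-repressor complexes such as those built on Ncor1, and ligand shifts the receptor towards co-activators of the p160 family, which in turn recruit histone acetyltransferases. Nrip1, also called RIP140, departs from this scheme, since it binds receptors that carry their ligand and represses transcription. Rarb is a textbook RA target as well as an RA receptor.

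Promoter sequences from RefSeq (build GRCm38.p6) are shown for Rarb and Nrip1, because these were the member genes that rose within 8 h of RA. Each sequence runs from 250 bases before a transcription start to 50 bases after it, on the gene's strand. The gene spans are chr14:16430839-17082331 for Rarb and chr16:76287403-76373827 for Nrip1. The Rarb window lies at chr14:16575427-16575726 on the minus strand. It is at a start inside the annotated gene span and not at the outer start near chr14:17082331. The Nrip1 window shown lies at chr16:76373778-76374077 on the minus strand. Of the 2 Nrip1 windows it is the one over the transcription start of the annotated gene, and the other lies at chr16:76373000-76373299. Capitals mark a direct repeat, searched on both strands, of any pair of the hexamer AGGTCA, its variant AGTTCA, its variant GGGTCA and its variant GGTTCA, with a spacer of 5, 2 or 1 bases.
Rarb: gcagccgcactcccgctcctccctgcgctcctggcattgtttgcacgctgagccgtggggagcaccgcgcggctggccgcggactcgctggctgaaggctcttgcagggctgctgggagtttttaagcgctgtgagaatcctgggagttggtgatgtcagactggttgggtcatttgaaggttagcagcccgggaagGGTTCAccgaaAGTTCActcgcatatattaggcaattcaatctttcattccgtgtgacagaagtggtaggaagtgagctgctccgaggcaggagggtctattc
Nrip1: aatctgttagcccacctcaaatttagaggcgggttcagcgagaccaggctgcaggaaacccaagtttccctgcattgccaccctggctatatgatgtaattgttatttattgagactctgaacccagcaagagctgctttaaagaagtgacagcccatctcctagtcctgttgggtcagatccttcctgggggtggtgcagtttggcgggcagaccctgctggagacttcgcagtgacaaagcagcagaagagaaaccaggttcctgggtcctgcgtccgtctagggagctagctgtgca
The Rarb window held 1 match, the DR5 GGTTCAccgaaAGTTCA, from position -53 to -37 relative to the start (chr14:16575513-16575529). Neither Nrip1 window held one. Windows were available for 8 of the 10 listed genes, Ncoa2 and Ncoa3 being the exceptions, and the Rarb window was the 1 window with a match among 14. Of all 32851 mouse promoter windows of this length, 0.0974% held a DR5 by this definition, 0.268% a DR2, 0.222% a DR1 and 0.588% any of them. A match is a description of the letters, and the absence of one concerns this window alone.

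A log2 signal of 4 served as the background level, and 55.2% to 56.9% of the probe sets on each array lay below it. Of the 23 member probe sets, 17 exceeded it on at least 1 array and 6 did not. Fold changes against a group that lay under this level on every array are given as "at least", with each of its arrays set to 4. A log2 difference against such a group is a fitted value and not a bound. Marker genes followed the stage labels in part. The summed ES cell markers fell to between 11.5 and 12.2 at day 7, against 14.5 to 14.8 at day 0 (log2 of the sum). Pou5f1, Zfp42 and Esrrb averaged below background at day 7, while Nanog, Klf4 and Sox2 did not (Sox2 11.7, against 12.4 at day 0). Of 6 postmitotic motor neuron markers, 5 averaged above background at day 7, the exception being Chat, and 4 did so at day 4. All 4 markers of progenitor motor neurons averaged above background at day 7. The 4 day 2 arrays fell into the pairs of replicates 1 and 2 and of replicates 3 and 4, and both RA arrays correlated more closely with the second pair (r = 0.989 and 0.985) than with the first (r = 0.971 and 0.977, over all probe sets). Results that rest on day 2 were therefore also computed with each pair alone.

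A limma model of all 18 arrays called a probe set that changed 2-fold or more with an adjusted p under 0.01, the adjustment running over all 45037 probe sets. Across the 6 groups, 12 of the 23 member probe sets, standing for 8 of the 9 genes, differed by the model's F test, against 22.9% of all probe sets. The exception was Rxrb. After 8 h of RA, 2 member probe sets were higher than at day 2 and none was lower, where 0.187% of all probe sets were higher and 0.0333% lower. At day 2 against day 0, 1 was higher and 2 were lower (1.03% and 1.37% of all). At day 3 against 8 h of RA, 1 was higher and 1 lower (0.91% and 1.4% of all), and at day 3 against day 2, 5 were higher and 1 lower (2.15% and 2.03% of all). The 5 higher probe sets stood for 3 genes, Nrip1 having several of them. No member probe set was called between day 4 and day 3 (0.333% of all higher and 0.395% lower). At day 7, 2 were higher and 1 lower than at day 4 (6.52% and 4.98% of all), and 3 were higher and 4 lower than at day 0 (10.6% and 10.1% of all). The 2 higher than at day 4 were of 1 gene, Ncoa1, and the 4 lower than at day 0 were of 2 genes, Rarg and Ncoa3. Comparisons that name the same group share its arrays. The members called after 8 h of RA were thus an RA receptor gene and a co-repressor gene, while Rarg, Rxra, Rxrg, Ncoa1 and Ncoa3 were called at other steps.

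**Figure D1:**
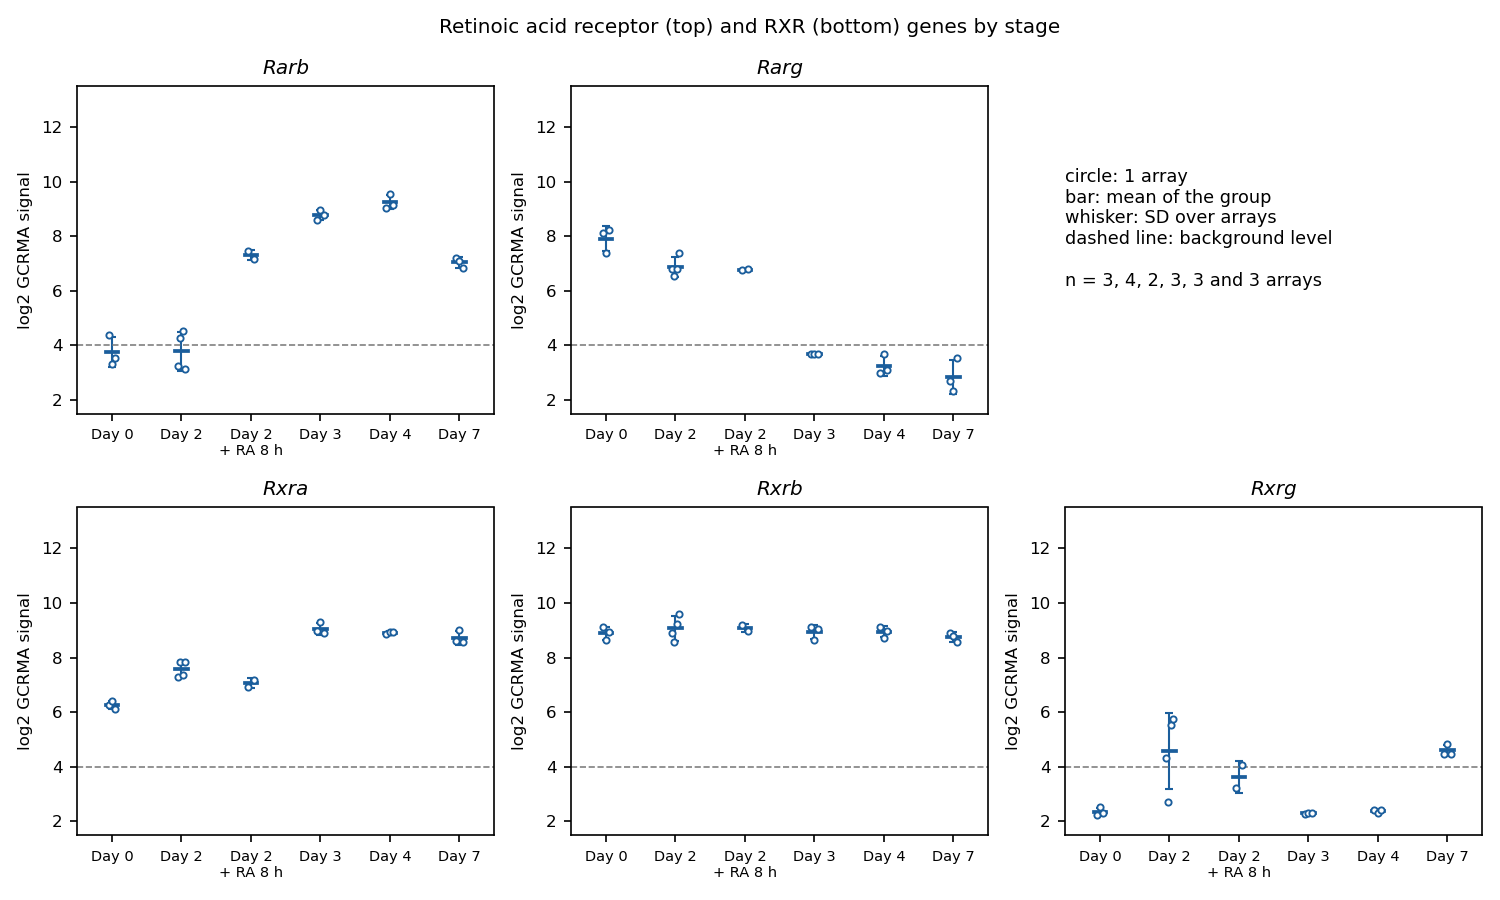
Log2 GCRMA signal (vertical axis) of the RA receptor genes Rarb and Rarg and the RXR genes Rxra, Rxrb and Rxrg in each of the 18 arrays, by stage (horizontal axis), on the brightest probe set of each gene. Circles are arrays, bars the group means and whiskers the SD. Rarb climbs above the background level of 4 (dashed) in both RA arrays, Rarg drops under it from day 3, and Rxrb stays between 8.55 and 9.61.

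The RA receptor gene Rarb was near background before RA and was detected in every array afterwards. Its log2 signal was 4.39, 3.32 and 3.55 at day 0 and 3.23, 4.27, 4.52 and 3.12 at day 2. It was 7.45 and 7.17 after 8 h of RA, 8.61, 8.96 and 8.79 at day 3, 9.05, 9.56 and 9.16 at day 4, and 7.20, 7.10 and 6.82 at day 7. Both RA arrays lay above every day 2 array, and the 11 arrays from 8 h of RA onwards did not overlap with the 7 arrays before it. Rarb was 11.5-fold higher after 8 h of RA than at day 2 (log2 difference 3.52, standard error (SE) 0.39, adjusted p = 0.00056 from limma). Against day 2 replicates 1 and 2 alone the log2 fold change was 3.56, and against replicates 3 and 4 alone it was 3.49, with the call made in both cases. A fit of the RA and day 2 arrays alone did not call it (adjusted p = 0.34 from limma), and that fit called 10 of all probe sets.

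The highest Rarb signals were those of day 3 and day 4. At day 3 it exceeded the 8 h arrays by 1.48 (SE 0.41) without passing the threshold (adjusted p = 0.060), although the ranges did not overlap. Against day 2 the day 3 arrays were 32.0-fold higher (log2 difference 5.0, SE 0.34, adjusted p = 9.8e-07 from limma). The replicate numbers paired the arrays of day 2 and day 3, and with that pairing as a block in a fit of these 2 groups the log2 fold change was 4.78 and no longer passed (adjusted p = 0.064 from limma), in a fit that called 0 of all probe sets. With the block over all arrays the 6 member calls of this comparison were kept in number, again of Rarb, Rarg, Rxra and Nrip1. That block also spans stages whose arrays were not taken as paired by their replicate numbers. Day 4 had the highest mean, 9.25 ± 0.27 (SD, n = 3), which differed from day 3 by 0.47 and was not called. At day 7 Rarb fell by 2.21 relative to day 4 (4.63-fold lower, adjusted p = 0.00063 from limma), while it stayed 9.77-fold above day 0 (log2 fold change 3.29, adjusted p = 1.0e-05). The order of the group means was day 4, day 3, RA 8 h, day 7, day 2 and day 0, and of the neighbours in this order only day 7 and day 2 differed past the threshold.

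Rarg, unlike Rarb, was lower at day 3 than at day 2. This receptor gene, which is expressed in ES cells and in many early embryonic tissues, had log2 signals of 8.10, 7.39 and 8.23 at day 0 and of 6.79, 6.53, 6.79 and 7.39 at day 2. The signals were 6.75 and 6.78 after 8 h of RA, and 3.66, 3.67 and 3.67 at day 3. They were 2.99, 3.67 and 3.08 at day 4, and 2.68, 2.33 and 3.53 at day 7. All 9 arrays from day 3 onwards were under the background level, and all 9 earlier arrays were well above it. Within the first 8 h of RA, Rarg differed from day 2 by -0.11 (SE 0.33), which was not called. The fall came between 8 h of RA and day 3 and was at least 6.80-fold (log2 difference -3.10, SE 0.35, adjusted p = 0.00017 from limma). Relative to day 2 the fall at day 3 was at least 7.34-fold (adjusted p = 1.4e-05), and with the paired block in a fit of these 2 groups the log2 fold change of -3.04 was not called (adjusted p = 0.039). A difference of -1.03 at day 2 relative to day 0 was not called either (adjusted p = 0.064), although the ranges did not overlap. At day 7 Rarg was at least 15.0-fold lower than at day 0 (adjusted p = 4.7e-08 from limma).

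A second Rarg probe set lay near or under the background on every array and was highest on average at day 0 (3.72 to 4.21). It read 2.24 on all arrays from day 3 onwards, and 2 of its 3 day 0 arrays were also under the background. Its call at day 7 against day 0, which is among the 4 lower there, therefore has no usable fold, and 5 member probe sets, in place of 7, were called in that comparison once signals under the background were set to it. Over the 18 arrays the 2 Rarg probe sets correlated at r = 0.79. Rara, the remaining RAR gene, is no member of the set, and its single probe set lay between 3.44 and 4.01, at or near the background in every array. Its level could not be followed on these arrays.

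The RXR genes, whose proteins are the shared partners of RARs and of several other nuclear receptors, differed from each other in their course. Rxrb was detected throughout and was not called in any comparison. Its log2 signal ranged from 8.63 to 9.12 at day 0, from 8.55 to 9.61 at day 2, from 8.98 to 9.20 after 8 h of RA, from 8.65 to 9.13 at day 3, from 8.73 to 9.13 at day 4 and from 8.56 to 8.89 at day 7. The group means spanned 0.34, and all the neighbours in their order overlapped (adjusted p = 0.90 by limma's F test). Rxrb after 8 h of RA differed from day 2 by 0.02 with a standard error of 0.25, and the standard errors of its other comparisons were between 0.22 and 0.26.

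Rxra, in contrast, rose in steps on either side of the 8 h arrays. Its log2 signal was 6.28, 6.41 and 6.10 at day 0, and 7.28, 7.83, 7.35 and 7.82 at day 2. It was 6.94 and 7.18 after 8 h of RA, 8.98, 9.31 and 8.89 at day 3, 8.85, 8.92 and 8.95 at day 4, and 8.62, 9.02 and 8.55 at day 7. The day 2 arrays were all above day 0 and all under day 3, and the last 3 stages overlapped. The rise before RA, at day 2 against day 0, was 2.47-fold (log2 difference 1.30, SE 0.16, adjusted p = 0.00037 from limma). After 8 h of RA both arrays lay under all 4 day 2 arrays, by 0.51 on average (SE 0.19), and this was not called (adjusted p = 0.81). At day 3 Rxra was 3.99-fold higher than after 8 h of RA (log2 difference 2.0, SE 0.20, adjusted p = 5.3e-05) and 2.81-fold higher than at day 2 (adjusted p = 7.3e-05). These calls were lost in fits of the compared groups alone (adjusted p = 0.048 for day 2 against day 0, 0.046 for day 3 against 8 h of RA and 0.016 for day 3 against day 2), and with the paired block added to the last of them (log2 fold change 1.57, adjusted p = 0.046). Day 7 stood 5.53-fold above day 0 (log2 fold change 2.47, adjusted p = 1.7e-07 from limma). The other 2 Rxra probe sets were under the background on every array.

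Rxrg, which marks developing muscle and subsets of neurons, was dim and varied within day 2. Its log2 signal was 2.24, 2.51 and 2.29 at day 0, and 4.33, 2.72, 5.51 and 5.74 at day 2. It was 3.21 and 4.05 after 8 h of RA, from 2.25 to 2.32 at day 3 and from 2.29 to 2.41 at day 4, and it was 4.48, 4.83 and 4.48 at day 7. At day 2, replicates 3 and 4 were higher than replicates 1 and 2, the same pairs that separated over all probe sets. The day 0 and day 3 arrays were all under the background. Day 2 was at least 1.49-fold above day 0 (adjusted p = 0.030 from limma) and day 3 at least 1.49-fold under day 2 (adjusted p = 0.019), and neither was called with all 4 day 2 arrays. Both were called with replicates 3 and 4 alone (adjusted p = 6.3e-06 and 3.7e-06), without replicate 2 (0.00023 and 0.00011), with array weights (0.0068 and 0.00020) and with dim probe sets left out (0.0094 and 0.0052). Neither was called with replicates 1 and 2 alone. For the 8 h of RA the same subsets gave -2.0, which was called, and 0.10, which was not, against -0.95 with all 4 arrays, so that the sign turned with the pair of day 2 arrays used.

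At day 7 Rxrg was at least 1.51-fold higher than at day 0 (log2 difference 2.25, SE 0.58, adjusted p = 0.0087 from limma), with no overlap of the arrays. The margin over the threshold was small: leaving out any of the 6 arrays of these groups in turn ended the call (adjusted p from 0.020 to 0.032), and with all values under the background raised to 4 the difference was 0.60. Against day 4, where all arrays were under the background too, it was at least 1.51-fold higher and was not called (adjusted p = 0.014). That difference was called in the fit of the compared groups alone (adjusted p = 0.0022), with array weights (0.0019) and with dim probe sets left out (0.0045). The day 7 arrays also held the highest summed glial markers (log2 11.4 to 12.1, against 9.82 to 10.1 at day 4). The means of 3 of 5 measured markers were above background at day 7 and those of Gfap and S100b below it, S100b reaching 6.35 on its highest array. Slc1a3 made up most of that sum, averaging 11.5 at day 7 and 9.93 at day 4, and it already averaged 8.68 at day 0. Summed spinal interneuron markers were likewise highest at day 7 (8.59 to 10.4, against 7.10 to 8.14 at day 4, with the means of 2 of 4 above background and those of En1 and Lhx5 below it). The part of such cells in the day 7 values of Rxrg, Rarb and Ncoa1 was not tested. In pooled cells, a lower signal does not tell fewer expressing cells from less RNA per cell.

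**Figure D2:**
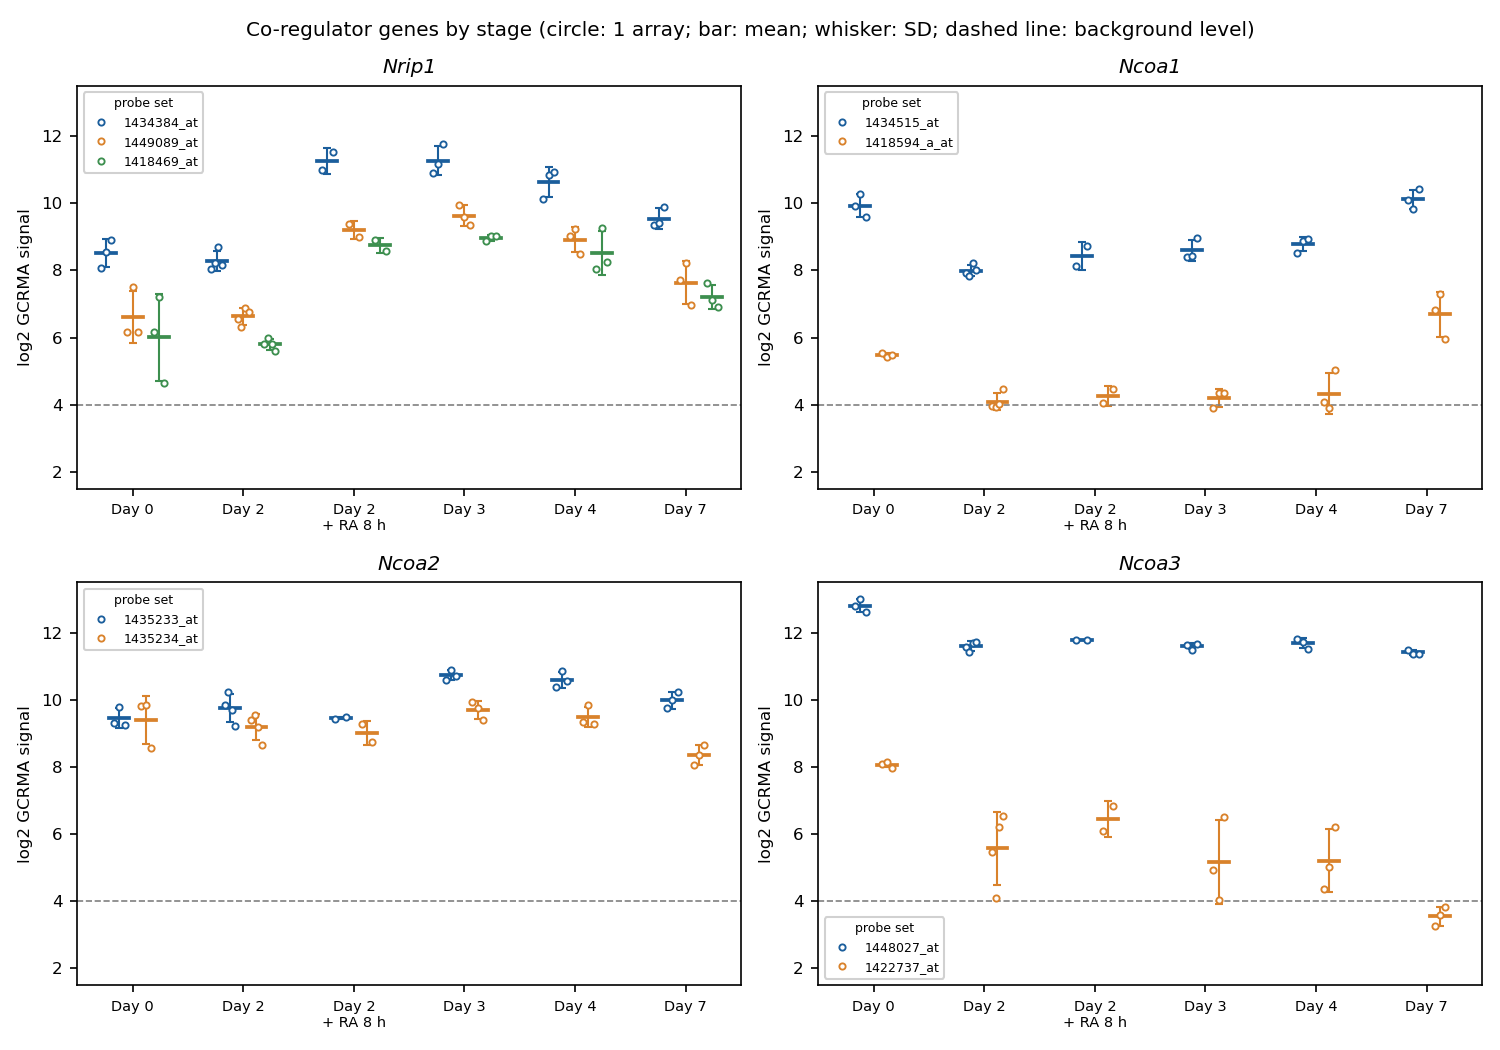
Log2 GCRMA signal (vertical axis) of the co-repressor gene Nrip1 and the co-activator genes Ncoa1, Ncoa2 and Ncoa3 in each of the 18 arrays, by stage (horizontal axis), for the brighter probe sets of each gene. Circles are arrays, bars the group means, whiskers the SD and the dashed line the background level of 4. All 3 Nrip1 probe sets step up in the RA arrays, and both Ncoa1 probe sets are lowest from day 2 to day 4.

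Nrip1, the ligand-dependent co-repressor, was the other member that rose within 8 h of RA. On its brightest probe set the log2 signal was 8.07, 8.54 and 8.91 at day 0, and 8.04, 8.23, 8.70 and 8.17 at day 2. It was 10.98 and 11.54 after 8 h of RA, 10.90, 11.18 and 11.76 at day 3, 10.14, 10.86 and 10.93 at day 4, and 9.35, 9.41 and 9.89 at day 7. The RA and day 3 arrays overlapped at the top and the day 0 and day 2 arrays at the bottom, with day 7 in between. Nrip1 was 7.87-fold higher after 8 h of RA than at day 2 (log2 difference 2.98, SE 0.32, adjusted p = 0.00048 from limma). Day 2 replicates 1 and 2 alone gave 3.13 and replicates 3 and 4 alone gave 2.83, both called, while the fit of the RA and day 2 arrays alone gave no call (adjusted p = 0.11 from limma). Unlike Rarb, which was a further 1.48 higher at day 3 without being called, Nrip1 differed from the 8 h level by 0.02 at day 3 (SE 0.34). The difference between these 2 steps was not tested.

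The probe sets of Nrip1 agreed in direction but not in every call. The next brightest set (1449089_at) was 9.38 and 9.01 after 8 h of RA, against 6.56, 6.32, 6.89 and 6.76 at day 2, a difference of 2.56 (adjusted p = 0.012 from limma). A further set (1418469_at) was 8.91 and 8.59 after RA, against 5.80, 6.0, 5.79 and 5.61 at day 2, a difference of 2.95 (adjusted p = 0.033). Neither passed 0.01 there, although the groups did not overlap on either. All 3 were called at day 3 against day 2, with log2 fold changes of 2.99, 3.00 and 3.17 (adjusted p from 1.8e-05 to 0.00072), and they correlated at r = 0.89 to 0.94 over the 18 arrays. For the brightest set the paired block in a fit of day 3 and day 2 gave 2.95 and no call (adjusted p = 0.032). A dim probe set (1447211_at) was 4.73 and 5.71 in the RA arrays and under background in all 4 day 2 arrays, at least 2.33-fold higher and not called (adjusted p = 0.47). Of the remaining 2, 1432603_at was under the background on every array and 1454295_at was called in no comparison. The later decline of Nrip1, -1.09 at day 7 against day 4, was not called (adjusted p = 0.021), and neither was the excess of 1.04 at day 7 over day 0 (adjusted p = 0.018), though neither pair of groups overlapped. Without day 4 replicate 1 the decline was -1.34 and was called (adjusted p = 0.0096).

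No probe set of the p160 co-activator genes was called after 8 h of RA. Their brightest probe sets differed from day 2 by 0.43 for Ncoa1, -0.30 for Ncoa2 and 0.18 for Ncoa3 on the log2 scale, with standard errors of 0.24, 0.24 and 0.11. For Ncoa3 both RA arrays lay above all day 2 arrays on that probe set. Its dimmer probe set differed by 0.88 (SE 0.73), too imprecise to tell a rise from none. Each of the p160 genes had a course of its own over the later and earlier steps.

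Ncoa1, also called SRC-1, was lowest from day 2 to day 4. Its log2 signal was 9.93, 10.27 and 9.61 at day 0, and 7.91, 7.84, 8.21 and 8.02 at day 2. It was 8.13 and 8.73 after 8 h of RA, 8.40, 8.43 and 8.97 at day 3, 8.53, 8.89 and 8.93 at day 4, and 10.10, 9.83 and 10.42 at day 7. The day 0 and day 7 arrays overlapped, and every array in between was lower than all of them. At day 2 Ncoa1 was 3.84-fold lower than at day 0 (log2 difference -1.94, SE 0.21, adjusted p = 0.00011 from limma), and at day 7 it was 2.52-fold higher than at day 4 (log2 difference 1.33, SE 0.22, adjusted p = 0.00078). Neither call was made in fits of the compared groups alone (adjusted p = 0.018 and 0.025). The net difference between day 7 and day 0 was 0.18 (SE 0.22). A second probe set showed a rise at day 7 of 2.36 over day 4 (adjusted p = 0.00019) and a difference of -1.39 at day 2 that was not called (adjusted p = 0.020). A further Ncoa1 probe set was under the background on every array.

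Ncoa3, also called SRC-3, was highest in ES cells. Its brightest probe set had log2 signals of 12.79, 13.01 and 12.62 at day 0, and 11.57, 11.42, 11.71 and 11.71 at day 2. From 8 h of RA to day 7 it lay between 11.37 and 11.81. The day 0 arrays stood apart from the other 15. Ncoa3 was 2.30-fold lower at day 2 than at day 0 (log2 difference -1.20, SE 0.10, adjusted p = 9.5e-06 from limma) and 2.62-fold lower at day 7 than at day 0 (adjusted p = 2.8e-07). The fit of day 2 and day 0 alone did not call it (adjusted p = 0.021). The dimmer probe set was 8.08, 8.14 and 7.98 at day 0, and it spread widely at day 2, with 5.46, 4.09, 6.22 and 6.52, replicates 3 and 4 again being the higher pair, and its difference from day 0 was not called (adjusted p = 0.041). It reached 3.25, 3.58 and 3.82 at day 7, at least 16.8-fold under day 0 (adjusted p = 0.00018 from limma). At day 0 the summed feeder fibroblast markers were also highest (log2 9.12 to 11.8, against 7.19 to 7.60 at day 2, with the means of 5 of 7 markers above background and those of Postn and Lum below it). Whether feeder cells had a part in the day 0 values of Ncoa1 and Ncoa3 was not tested.

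Ncoa2, also called TIF2 or GRIP1, was called in no comparison between stages. Its brightest probe set had log2 signals of 9.32, 9.80 and 9.24 at day 0, and 9.85, 10.24, 9.68 and 9.23 at day 2. The signals were 9.43 and 9.48 after 8 h of RA, 10.60, 10.89 and 10.72 at day 3, 10.37, 10.85 and 10.55 at day 4, and 9.75, 9.98 and 10.25 at day 7. Day 3 and day 4 were highest. The F test called it (adjusted p = 0.0017), while the rises at day 3, of 0.98 over day 2 (adjusted p = 0.012) and of 1.28 over 8 h of RA (adjusted p = 0.011 from limma), did not pass. Without day 2 replicate 2, with day 2 replicates 3 and 4 alone or with array weights, Ncoa2 was called over day 2 (1.14, 1.28 and 1.07, adjusted p = 0.0033, 0.0034 and 0.00071). Over 8 h of RA it was called with dim probe sets left out (adjusted p = 0.0075 from limma), with array weights (0.00054) and with the brightest probe set per gene (0.0067). The replicate block over all arrays also called it (1.13, adjusted p = 0.0052 from limma), but the replicate numbers were not taken to pair day 3 with RA. The second brightest probe set did not pass the F test (adjusted p = 0.069), was lowest at day 7 (8.05, 8.35 and 8.65) and correlated with the first at r = 0.46, so that the course of Ncoa2 depended on the probe set. The remaining 2 Ncoa2 probe sets were called in no comparison.

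**Figure D3:**
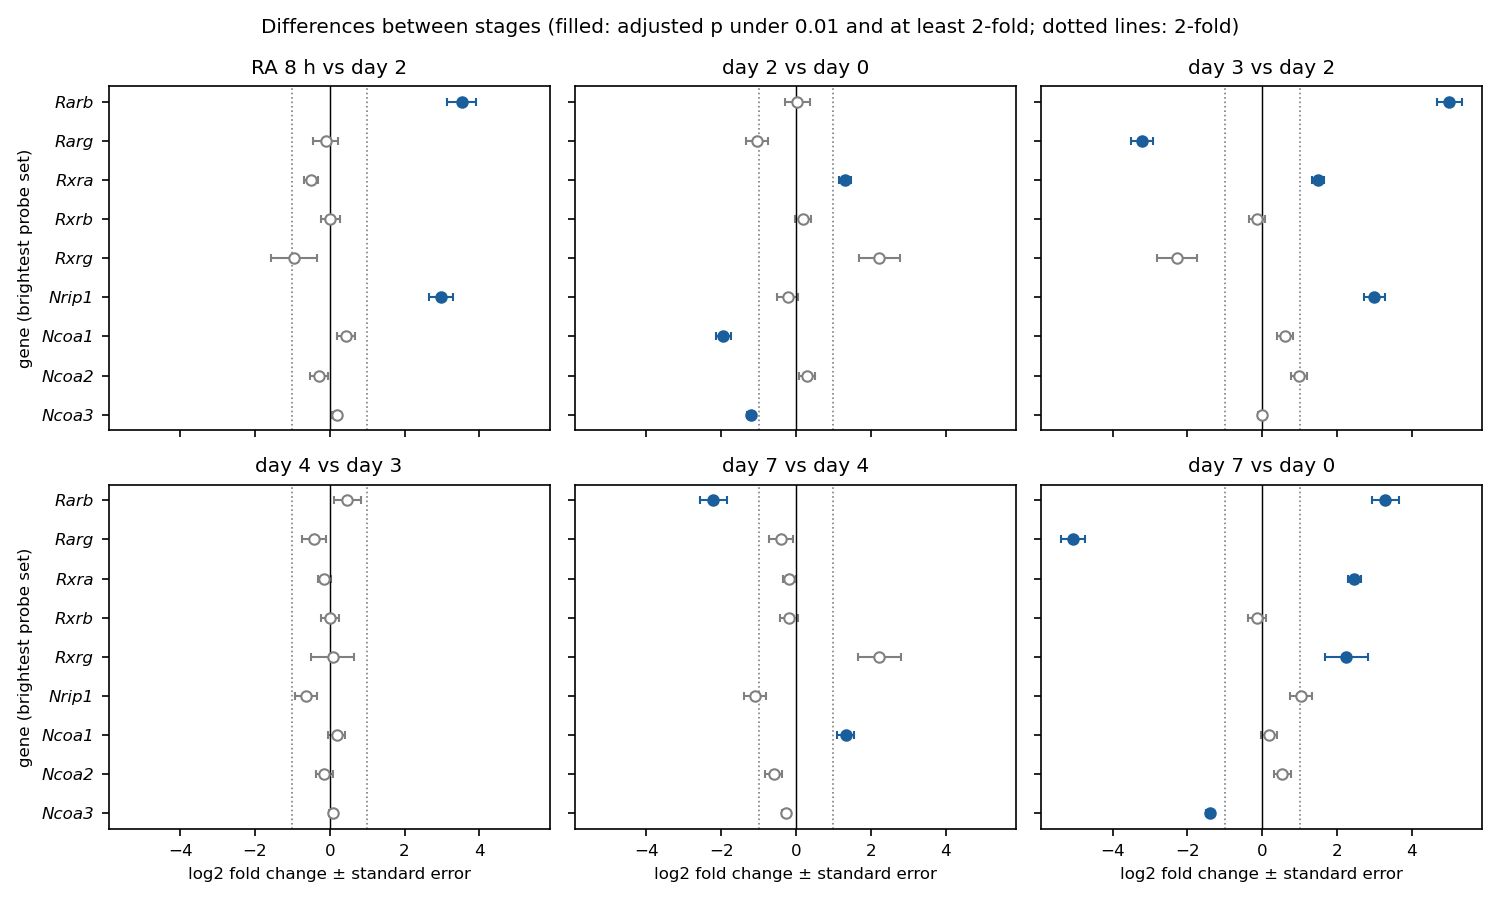
Log2 fold change with limma's standard error (horizontal axis) of the brightest probe set of each of the 9 genes (vertical axis) in 6 comparisons, each named as first group against second. Filled points changed 2-fold or more with an adjusted p under 0.01, and dotted lines mark 2-fold. After 8 h of RA the filled points are Rarb at 3.52 and Nrip1 at 2.98, and between day 4 and day 3 there is none.

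Among other co-regulators of nuclear receptors, the few calls before day 7 came at rates near those of all probe sets. Of 32 further genes on that list, which also includes the receptor gene Rara, 30 were measured, by 81 probe sets. After 8 h of RA 0 of the 81 were called in either direction (0.187% of all probe sets higher and 0.0333% lower), and the list's median log2 fold change was 0.00, as over all probe sets. At day 2 against day 0, Ncoa5, a co-regulator with activating and repressing roles, was 2.09-fold higher, and Kat2b (PCAF), a histone acetyltransferase, was 2.2-fold lower. These were the 1 higher and 1 lower call of that comparison (1.03% and 1.37% of all). At day 3, Lcor, a ligand-dependent co-repressor, stood 3.58-fold above day 2 (adjusted p = 0.00099 by limma). It stood 3.31-fold above 8 h of RA, the 1 call of that comparison (0.91% of all higher and 1.4% lower). Ncoa6 was 2.12-fold higher and Kat2b 2.08-fold lower at day 3 than at day 2. The 2 higher and 1 lower calls at day 3 against day 2 stand beside 2.15% and 2.03% of all probe sets. None of the 81 was called between day 4 and day 3. At day 7, 5 were lower than at day 4 and 0 were higher (4.98% and 6.52% of all), the lower ones including Tbl1x, a subunit of co-repressor complexes (2.23-fold, adjusted p = 1.4e-05), and Sin3a, a scaffold of histone deacetylase complexes (2.21-fold). The median over all 81 probe sets of the list was -0.27, against 0.00 over all probe sets, many of which lay under the background. At day 7 against day 0, 6 were higher and 12 lower (10.6% and 10.1% of all), with Kat2b 5.30-fold lower (adjusted p = 2.5e-06), Sin3a 4.74-fold lower and Lcor 3.44-fold higher.

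Among 13 other nuclear receptor genes whose proteins pair with RXR, 12 were measured, by 24 probe sets, and 0 of these were called in either direction at any step up to day 4, where at most 2.15% of all probe sets were called in 1 direction. At day 7, 2 were higher than at day 4 and 0 lower (6.52% and 4.98% of all). Thra, a thyroid hormone receptor, had log2 signals of 11.38, 10.99 and 11.82 at day 7, against 6.98, 7.17 and 7.61 at day 4, and was 17.7-fold higher (log2 difference 4.15, SE 0.22, adjusted p = 1.8e-08 from limma). Its arrays at the 5 earlier stages lay between 6.38 and 7.61. At day 7 against day 0, Nr4a1, an immediate early nuclear receptor, averaged 2.24, under the background level, at day 7 and 5.70 at day 0 (adjusted p = 0.0018 from limma).

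The genes whose courses were most like those of the members were sought by Pearson's r over the 18 arrays, among 4191 genes with a range of group means of at least 2 and a highest mean of at least 6. The arrays share stages, so that r describes a likeness of course and carries no test. Closest to Rarb were Hoxb4 (r = 0.97), Hoxa3 (r = 0.96) and Gm15050 (r = 0.96), the first 2 being homeobox genes of the hindbrain and cervical levels, and all 3 peaked at day 4. Closest to Nrip1 were Zfp703 (r = 0.92), Hoxb2 (r = 0.92) and Ndnf (r = 0.91). Rarg went with the zinc finger genes Zfp52 (r = 0.99) and Zfp936 (r = 0.98) and with Cdcp1 (r = 0.98), all highest at day 0 and lowest at day 7. Rxra went with Ildr2, Tox3 and Nrcam (r = 0.97, 0.97 and 0.96), all lowest at day 0. For Rxrg the closest were Dnah7a, Pde2a and Jph4 (r = 0.89, 0.89 and 0.87). Rxrg lay under background on 11 of the 18 arrays and split by pair at day 2, which limits that likeness. For Ncoa1 the closest were Rab11fip5, Jam2 and Mfsd12 (r = 0.92, 0.92 and 0.91), all 3 highest at day 7.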

How the data were processed

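RNA from HBG3 mouse ES cells and their derivatives was amplified and hybridized to Affymetrix Mouse Genome arrays by the authors. Each deposited value is a log2 signal of a probe set. The authors computed it by GCRMA over the whole set of arrays (background adjustment, normalization between arrays, summary of probes). The authors' versions of GCRMA and limma are not given in the sources used here. Values were used as deposited, and groups and replicate numbers came from the labels.

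The 64 control probe sets among 45101 were left out. Of the 45037 tested, 932 had several gene symbols and 9160 had none here. Group means of 6 stages were fitted to all 18 arrays with limma 3.58.1 in R 4.3.3 (12 residual and 0.515 prior degrees of freedom), and p-values were adjusted by Benjamini and Hochberg's method over all 45037. Thresholds were an adjusted p under 0.01 and 2-fold, as in the methods. The fit was tested on simulated data. Figures were drawn with Python 3.11.15 and matplotlib 3.10.9. Errors of means are SDs over arrays, errors of log2 fold changes are standard errors, and the number of arrays limits the precision. Standard errors of probe sets near the lowest values can be too small.

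A gene's value is that of its brightest probe set over all arrays. The genes named are the members, up to 3 called genes per further list and comparison, and the 3 genes of most similar course for members with a range of at least 2. The members and lists were chosen with earlier results of these data known. RefSeq promoter windows came from GRCm38.p6.

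The pairing of arrays by equal replicate numbers was judged by the correlation of their deviations from the group means over all probe sets. It was 0.48, 0.35 and 0.48 for day 3 with day 2 and 0.64, 0.42 and 0.75 for day 4 with day 3, and these were taken as paired. It was -0.22 and -0.45 for RA with day 2, 0.21, -0.20 and -0.13 for day 2 with day 0, and 0.10 and 0.21 for day 3 with RA, which were not. Day 7 shares 1 number with the other stages.

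Alternatives were fits of the compared groups alone, robust and trended moderation, a replicate block, omission of dim probe sets, quantile normalization, a floor at the background level, median centring, array weights, the brightest probe set per gene, an adjusted p under 0.05, day 2 replicates 1 and 2 or 3 and 4 alone, and each array left out in turn. Where this left 1 RA array, its spread was taken from that of the other groups.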

Additional observations from a re-analysis of the deposited data

Results flagged for a closer look

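At day 2, 1 array stood apart from the others of its group for 1 member probe set. The second probe set of Ncoa1 (1418594_a_at) read 4.45 in replicate 4, against 3.93 to 4.02 in replicates 1 to 3, a gap of 0.839 of the whole range. The day 2 group was the only one large enough for this comparison, which covered the 14 member probe sets above background on at least 1 of its arrays. Chance alone sets about 1 in 20 such groups apart.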

How the results depend on the processing

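Of 1089 values of single genes computed under the alternatives, 991 kept their direction and their side of the threshold, 24 lost a call and 31 gained one. No called value changed sign, and 43 values that neither fit called did so, the largest of them at 0.95 in size under the design reported. In fits restricted to the compared groups, the number of member probe sets called was 0 for RA 8 h against day 2 (10 of all probe sets were called), 0 for day 2 against day 0 (77 of all) and 1, Rarg, for day 3 against RA 8 h. With the replicate block over all arrays, 1 probe set, of Nrip1, was called for RA 8 h against day 2, where Rarb had a log2 fold change of 3.43 (adjusted p = 0.017 from limma), and at day 7 against day 4 it ended the calls of Rarb (-1.80, adjusted p = 0.035) and Ncoa1 (1.12, adjusted p = 0.017) and made that of Nrip1 (-1.47). The replicate numbers do not pair these arrays. It also ended the call of Rxrg at day 7 against day 0 (1.48), as did quantile normalization (2.07) and raising values to the background level (0.60). The replicate block in a fit of day 3 and day 2 alone called 0, and 0 of all probe sets. Over all arrays the block kept 6 called for this comparison, of Rarb, Rarg, Rxra and Nrip1 (1905 of all), but it also spans stages not taken as paired. For day 4 against day 3 the block in a fit of both groups called 0 of all probe sets, and no member was called without it. With dim probe sets left out, 4 were called for RA 8 h against day 2 and 5 for day 2 against day 0. With array weights the counts were 4 for RA 8 h against day 2 and 6 for day 7 against day 4, and at an adjusted p under 0.05 they were 4, 6 for day 2 against day 0 and 7 for day 7 against day 4. Leaving out 1 array at a time, the count ranged from 2 to 2 for RA 8 h against day 2, 3 to 4 for day 2 against day 0, 2 to 2 for day 3 against RA 8 h, 6 to 8 for day 3 against day 2, 0 to 0 for day 4 against day 3, 3 to 4 for day 7 against day 4, 5 to 8 for day 7 against day 0, and 10 to 14 for the F test. The only calls of a brightest probe set lost in this way were those of Rxrg at day 7 against day 0. The cause of these changes was not tested. The fits of fewer groups also held fewer arrays. With 2 RA arrays, small differences after 8 h were not detectable.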
